A study of Mus musculus with 4 samples.

Results

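Of 9 listed genes of bile acid and sterol transport, 6 had a probe set on the array, out of 12393 genes measured. These were the bile acid genes Slc10a2, Slc51a, Fabp6 and Fgf15 and the sterol genes Abcg5 and Abcg8. The members were listed by gene name, with earlier results of these data known. Each was read by 1 probe set, so none rested on a choice between probe sets. Slc51b, Npc1l1 and Soat2 were not analysed here.

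Bile acids are made from cholesterol in the liver, reach the gut lumen in bile, and are recovered mainly in the last stretch of the small intestine. There Slc10a2 takes them up across the brush border, Fabp6 binds them in the cytosol, and the pair encoded by Slc51a and Slc51b passes them on to the blood. Fgf15 is the hormone that the ileal epithelium sends to the liver to restrain bile acid synthesis. Sterols are handled along the upper small intestine, where Npc1l1 brings cholesterol in, Soat2 esterifies it for export in lipoproteins, and Abcg5 and Abcg8 together form the pump that returns plant sterols and surplus cholesterol to the lumen.

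RNA was measured on 4 Affymetrix mouse arrays, 1 for each sample, from the epithelium of the proximal intestine of C57BL/6 mice 4 to 6 weeks old. One group was Lgr5(hi) stem cells of wild type mice, isolated by flow sorting (2 arrays), and the other was villus cells, released by EDTA, of Atoh1 knockout mice whose deletion was conditional and epithelial; the submitters call these Enterocytes (2 arrays). Atoh1 is the factor that secretory cells require, and its loss was used so that the villus would carry absorptive cells alone. The same tamoxifen protocol, 1 mg daily for 5 days and then 5 days of waiting, stands in the labels of both groups, the wild type samples included. The titles call the arrays of a group biological replicates. How the deletion was driven and the animals behind each array are not given in the labels. Cell type, genotype and isolation differ together between the groups and cannot be told apart.

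Values are normalized intensities on a linear scale, and differences are on the log2 scale, enterocytes minus stem cells, with the standard error (SE) of limma's fit and n = 2 arrays per group. A background level of 47.4 intensity units (log2 5.57) was taken from 23 genes of other organs. Array medians lay between 102.4 and 110.6. As a check of the labels, the deleted gene Atoh1 was at least 4.02-fold lower in enterocytes, where it read below background, and the sort gene Lgr5 fell by 4.64 on the log2 scale. With no villus array of wild type mice, the Atoh1 reading does not separate the deletion from the difference in cell type. All 16 measured enterocyte markers were higher and 11 of 12 stem cell markers lower in the enterocyte arrays, while 13 of 19 secretory markers were lower and 2 higher. Lymphocyte markers were higher in 14 of 16 cases, with intensities that summed to 826 and 1091 for stem cells and to 9303 and 12434 for enterocytes. What part such cells had in the differences below was not tested, and in bulk RNA of this kind fewer cells of a type and less RNA per cell cannot be told apart.

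Slc51a, a subunit of the basolateral bile acid exporter, and both subunits of the sterol pump read higher in villus cells than in stem cells, by 38.3-fold for Slc51a, 7.65-fold for Abcg5 and 2.26-fold for Abcg8, while the apical bile acid carrier and Fgf15 gave no reading above background in either. Of the 6 measured members, 3 were higher in enterocytes by limma (Benjamini-Hochberg adjusted p under 0.05), 0 were lower and 3 did not pass. Over all genes 18.2% passed as higher and 22.4% as lower. The median difference of the members was 1.46, beside -0.00261 over all genes; it was 0.64 without enterocyte replicate 2, 2.08 without enterocyte replicate 1, 2.34 over the 4 members above background in a group and 0.76 with each array centred on 8 reference genes, a scaling that moved the median of all genes to -0.70. Of those 8 reference genes 4 themselves passed as higher in enterocytes and 1 as lower, at a median difference of 0.55. Centring on them thus shifts every gene downwards in enterocytes, and calls lost or signs turned under it carry that limit. The groups did not overlap, with both enterocyte arrays above both stem arrays, in Slc51a, Abcg5 and Abcg8, which was also so for 30.5% of all genes. In the plot of levels by array these 3 genes lie apart by group, Slc10a2 and Fgf15 lie below the background level, and Fabp6 is split between the enterocyte arrays.

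**Figure D1:**
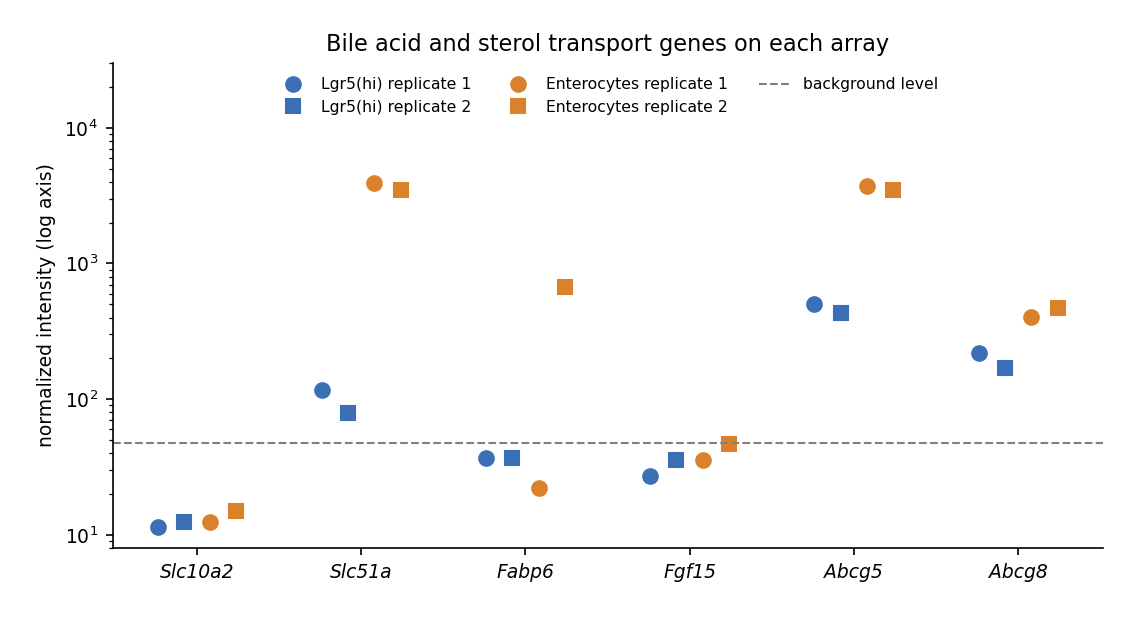
Normalized intensity (log axis) of the 6 measured genes on each array, stem cells in blue and enterocytes in orange, circles for replicate 1 and squares for replicate 2, with the background level of 47.4 dashed. Slc51a, Abcg5 and Abcg8 are higher on both enterocyte arrays, and Fabp6 is at 22.3 on one enterocyte array and 667 on the other.

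Slc10a2, the sodium-dependent bile acid carrier of the ileal brush border, read 11.5 and 12.4 in stem cells against 12.4 and 14.9 in enterocytes. The gene was thus not above background on any array, and no fold is given. It did not pass as deposited (adjusted p = 0.339 by limma), and a difference between such readings gives no size or direction for the gene.

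Fabp6, the cytosolic bile acid binding protein, stood out by the spread within its group. It read 36.6 on both stem arrays, 22.3 on enterocyte replicate 1 and 667 on enterocyte replicate 2. The stem arrays and enterocyte replicate 1 are thus below background, and enterocyte replicate 2 alone was above it, at 14.1 times that level. The group difference of 1.74 ± 1.93 SE did not pass (adjusted p = 0.531 by limma, 95% interval -4.17 to 7.64). Against stem readings below background, the difference without enterocyte replicate 1 was 4.19 (adjusted p = 0.0427), and without enterocyte replicate 2 it turned to -0.71 (adjusted p = 0.0459). The identical values of the stem arrays leave those reduced fits with no spread of their own for this gene, and the second is a difference between readings below background.

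Since replicate 1 read below background, the enterocyte arrays differed by at least 14.1-fold, a gap of at least 3.82 on the log2 scale, and 4.90 between the readings as deposited. On either scale it was the widest of all 12393 genes. Over all genes the median absolute gap between those arrays was 0.14, and it exceeded 1 in 148 genes (1.19%). Next in width with readings raised to background was Clps, pancreatic colipase, at 3.58, named after its values were seen. Clps read 103 and 1231 on the enterocyte arrays and was higher on the stem arrays, at 1980 and 3878. The other members read alike on both enterocyte arrays, with gaps of -0.18 for Slc51a, -0.10 for Abcg5 and 0.20 for Abcg8, and with Slc10a2 and Fgf15 below background on both. The plot of the enterocyte arrays against each other shows Fabp6 far off the diagonal and the other 5 members on it.

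**Figure D2:**
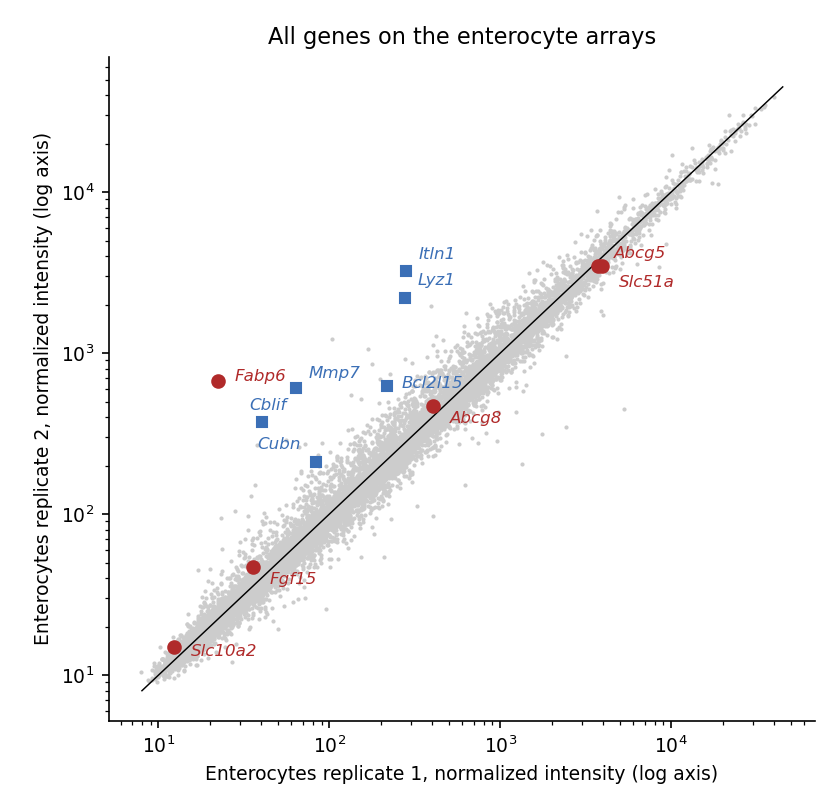
Normalized intensity of all 12393 genes on enterocyte replicate 1 (x, log axis) and replicate 2 (y, log axis), with equality as a line, the 6 measured members in red and 6 genes named in the text in blue. Fabp6, below background on replicate 1, lies farther above the line than any other gene (at least 3.82 log2 units, 4.90 as drawn), and the other members lie close to it.

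Genes of vitamin B12 uptake, which like bile acid recovery belongs to the distal small intestine, showed both behaviours. Cubn, the receptor for B12 bound to intrinsic factor, read 83.2 and 211 on the enterocyte arrays, a gap of 1.35, and 43.2 and 34.1 on the stem arrays. Its partner Amn had a gap of 0.41 and the B12 carrier Tcn2 one of -0.09. Cblif, the intrinsic factor itself, is not among the genes listed for the distal small intestine and was named after its values were seen. It read 40.5 and 372 on the enterocyte arrays, at least 7.85-fold apart since the first is below background, and 30.1 and 27.7 on the stem arrays.

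Of 9 measured genes listed for the distal small intestine, 2 had a gap over 1 towards replicate 2, Cubn and Bcl2l15 (1.52), and 0 one over 1 towards replicate 1. Cyp2c55, a cytochrome P450, leaned the other way at -0.62. The median gap of that list was -0.00445. Among 21 genes listed for the proximal small intestine 1 had a gap over 1, Trpv6, the apical calcium channel, at 1.71. Cybrd1, the duodenal iron reductase, followed at 0.79 and S100g, the calcium binding protein calbindin, at 0.64. Their median was 0.09. Single genes of both regions thus read higher on replicate 2 with Fabp6, and the medians of the lists lay near 0. Whether the arrays differed in the stretch of intestine collected is not given in the labels and was not tested.

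Secretory cell markers also differed between the enterocyte arrays, and 5 of 19 were more than 1 (log2) higher on replicate 2 and 1 was more than 1 lower. Their summed intensities were 3114 and 5509 on the enterocyte arrays and 71436 and 88116 on the stem arrays. The Paneth cell lysozyme Lyz1 read 277 on enterocyte replicate 1 and 2204 on replicate 2, and the Paneth cell protease Mmp7 read 63.5 and 604. On the stem arrays Lyz1 read 27637 and 35698. Itln1, a lectin of secretory cells named after its values were seen, read 282 and 3225 on the enterocyte arrays. What part secretory cells had in the gap of Fabp6 was not tested. In the other direction the widest gap was that of the MHC class II gene H2-Aa, also named after its values were seen, at 5335 on replicate 1 and 452 on replicate 2.

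**Figure D3:**
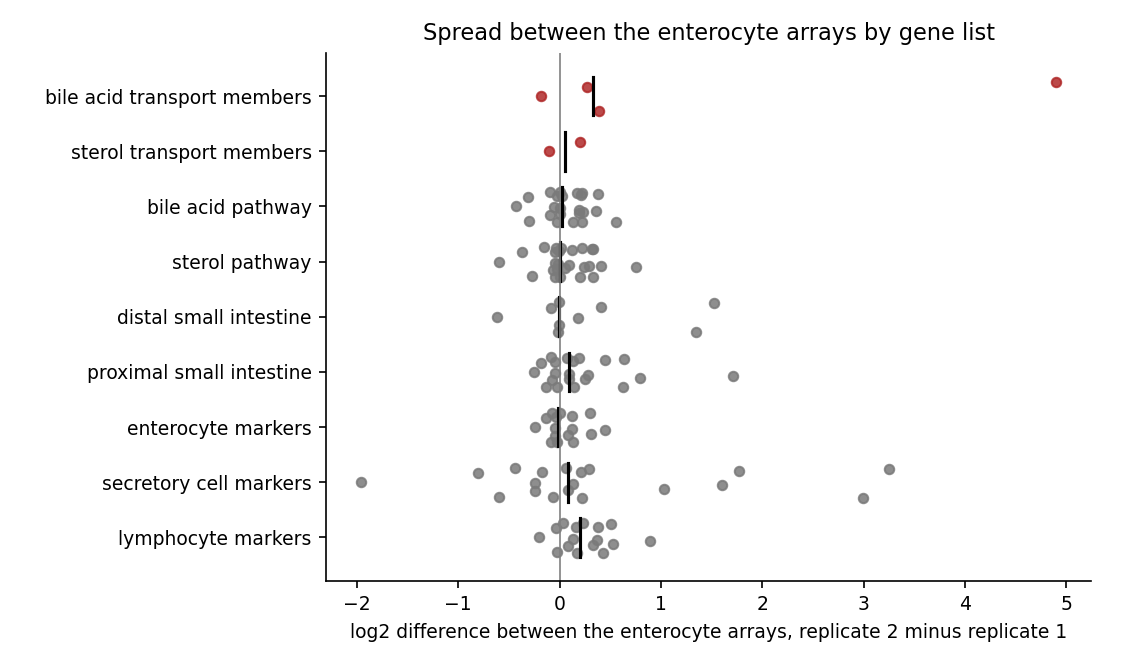
Log2 difference between the enterocyte arrays, replicate 2 minus replicate 1 (x), for each gene of 9 lists (y), members in red, with a bar at each list's median. Fabp6 lies at 4.90 as deposited, from a reading below background on replicate 1, the secretory markers spread from -1.96 to 3.25, and the medians of all 9 lists lie between -0.01 and 0.33.

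Of the measured members, Slc51a had the largest difference between the groups. Slc51a, the larger subunit of the basolateral bile acid exporter, read 117 and 79.5 in stem cells against 3929 and 3461 in enterocytes. All 4 readings are above background, and the groups lie far apart. It was 38.3-fold higher in enterocytes (5.26 ± 0.23 SE, adjusted p = 0.00323 by limma), the 41st widest increase of 12393 genes. Leaving out any 1 array kept a difference between 4.98 and 5.53 but ended the call (adjusted p from 0.0524 to 0.0578). Without either stem array limma called 0 of all genes; at p under 0.05 before adjustment there were 4675 and 4817. The probe set is of a kind that may read related transcripts too, and it is the only one for this gene.

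Fgf15, the hormone made in response to bile acids, read 27.2 and 35.7 in stem cells against 35.7 and 46.6 in enterocytes. The groups touch at the shared value of 35.7, and every reading lies below background. It did not pass (adjusted p = 0.284 by limma), and no size or direction is given.

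The windows of 250 bases before the RefSeq start sites of Slc51a and Fabp6, the bile acid genes with readings above background, are shown for comparison (GRCm38.p6). Both lie on the minus strand, at chr16:32487880-32488129 for Slc51a and chr11:43601563-43601812 for Fabp6, and capitals mark the matches to the motifs searched.
Slc51a: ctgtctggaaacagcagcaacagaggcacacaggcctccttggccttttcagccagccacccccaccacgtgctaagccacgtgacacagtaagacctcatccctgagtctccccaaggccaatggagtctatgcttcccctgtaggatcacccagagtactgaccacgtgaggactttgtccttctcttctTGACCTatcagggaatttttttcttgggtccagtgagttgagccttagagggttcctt
Fabp6: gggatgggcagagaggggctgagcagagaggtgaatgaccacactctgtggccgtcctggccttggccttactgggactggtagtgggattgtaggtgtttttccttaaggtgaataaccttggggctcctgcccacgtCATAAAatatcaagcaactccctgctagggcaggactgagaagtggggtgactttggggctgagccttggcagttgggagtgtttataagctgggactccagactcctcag
Slc51a holds 1 match to AGGTCA, the single recognition site of nuclear receptors, on the opposite strand, from 58 to 53 bases before the start, a motif found on either strand in 14% of 32851 such windows. Fabp6 holds 1 match to TTTATG, the CDX motif, also on the opposite strand, 111 to 106 bases before the start, and 10.8% of windows hold it. AGGTCA repeated as the bile acid receptor's inverted repeat with 1 base between is in 0.00609% of windows and in none of the 8 windows searched for 7 of the listed genes. The oxysterol receptors' direct repeat, with 4 bases between, is in 0.0152% of windows and likewise in none of those 8. Only exact letters were searched, and a site that departs from them at any base stays in lower case. Absence of matches to such rare strings therefore does not show that a window lacks a site of this kind. Neither window had a match to the HNF1 motif, written GTTAAT and held by 6.43% of windows. The same was so for the HNF4 motif, CAAAGTCCA, held by 0.384%, and for the one read by GATA factors, whose letters are AGATAA and which 9.99% hold.

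Both subunits of the sterol pump were higher in enterocytes. Abcg5 read 506 and 433 in stem cells against 3710 and 3458 in enterocytes, so that the groups stand well apart. It was 7.65-fold higher (2.93 ± 0.11 SE, adjusted p = 0.00277 by limma). Abcg8 read 218 and 169.7 in stem cells against 406 and 467 in enterocytes, closer together but still without overlap. It was 2.26-fold higher (1.18 ± 0.17 SE, adjusted p = 0.0176 by limma).

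The call on Abcg5 was lost without stem replicate 1 (adjusted p = 0.0524), stem replicate 2 (0.0552) or enterocyte replicate 2 (0.0508). That on Abcg8 was lost without any 1 array (adjusted p from 0.0822 to 0.145) and when readings below background were raised to it (0.0542). Under reference gene centring both remained higher, at 2.24 and 0.48.

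The subunits work only as a pair, but their probe sets did not move by the same amount. The log2 ratio of Abcg5 to Abcg8 was 1.21 and 1.35 in stem cells against 3.19 and 2.89 in enterocytes. The ratio thus grew 3.38-fold, a change of 1.76, and the groups did not overlap. A two-sided exact permutation test of 2 against 2 arrays gave p = 0.333, the smallest p this design allows. A probe set's level depends on its own binding, so the size of the ratio cannot be read. Its change rests on 1 probe set for each gene, and whether both respond alike to a change in RNA was not tested.

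Abcg5 and Abcg8 lie head to head on chromosome 17 and run in opposite directions, with 109 bases between their start sites. The stretch between those starts, chr17:84683012-84683120 on the plus strand of GRCm38.p6 in RefSeq, is shown because it serves as upstream sequence for both, with matches to the GATA motif in capitals.
Between Abcg5 and Abcg8: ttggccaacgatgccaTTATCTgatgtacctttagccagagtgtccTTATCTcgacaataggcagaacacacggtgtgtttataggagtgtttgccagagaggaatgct
It holds 2 matches to AGATAA, both on the minus strand, at positions 17 and 47 counted from the Abcg5 side, and none to the other motifs searched. Abcg8 has a further RefSeq start, inside Abcg5, which the array does not tell apart. Gata4, a GATA factor of the proximal intestine, read 264 and 229 in stem cells against 278 and 264 in enterocytes, a difference of 0.14 ± 0.10 SE that did not pass (adjusted p = 0.362 by limma) and turned to -0.56 with reference gene centring (adjusted p = 0.0116). A match to letters is a description of the sequence and not a site shown to be bound.

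**Figure D4:**
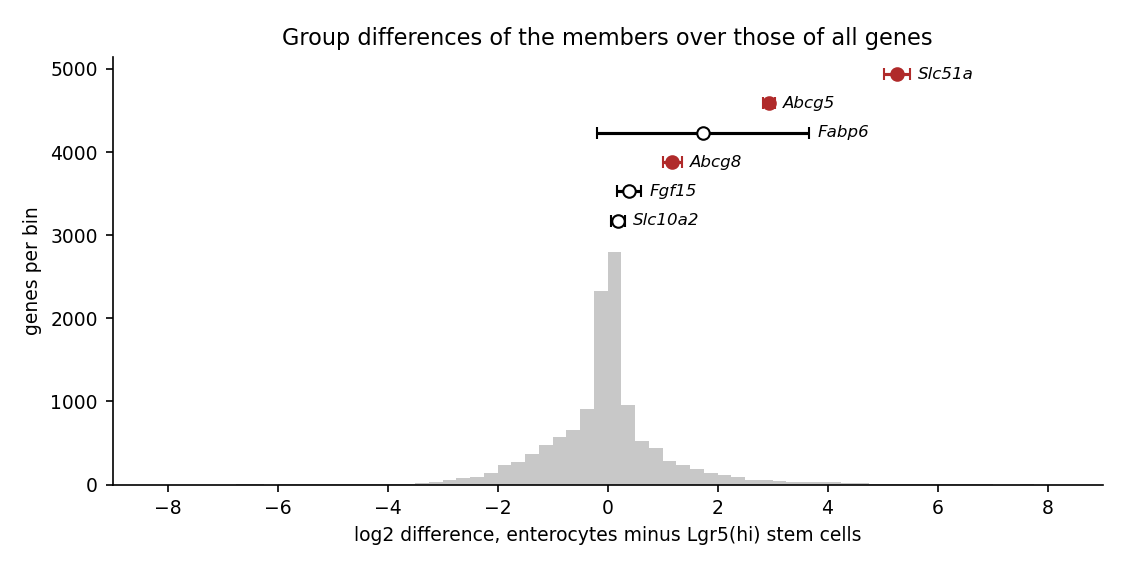
Log2 difference between enterocytes and stem cells (x) of the 6 measured members, with limma's SE as bars (n = 2 arrays per group), above a histogram of the differences of all 12393 genes (y, genes per bin of 0.25). Filled red points passed at an adjusted p under 0.05 (Slc51a at 5.26, Abcg5 at 2.93, Abcg8 at 1.18), and open points did not, Slc10a2 and Fgf15 being below background on every array and Fabp6 in stem cells.

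Around the bile acid members, the bile acid receptor and 2 exporters of conjugates were higher in enterocytes, and the first enzyme of bile acid synthesis was not above background. The shares over all genes were 18.2% higher and 22.4% lower. Of 23 measured genes of the bile acid pathway 10 were higher, 2 lower and 11 did not pass. Their median was 0.21, and 8 lay below background in both groups. Under reference gene centring 7 were higher and 12 lower. Nr1h4, the bile acid receptor FXR, read 199 and 198 in stem cells against 336 and 384 in enterocytes (0.86 ± 0.09 SE, adjusted p = 0.00963 by limma). Nr0b2, the repressor SHP and a target of that receptor, read 67.6 and 92.9, then 158 and 232 (1.27 ± 0.29 SE, adjusted p = 0.0462). The call on Nr1h4 was lost with reference gene centring (0.16, adjusted p = 0.457), and that on Nr0b2 in 4 settings, with adjusted p up to 0.114 when values were raised to background. Both were higher on each enterocyte array than on each stem array as deposited, and Fgf15, another target, was not above background. Of the partner receptors, Rxrb fell by 1.48 on the log2 scale, while Rxra, named after its values were seen, rose by 0.67 (adjusted p = 0.0193 by limma). The call on Rxra was lost with values raised to background (adjusted p = 0.0505) and its difference was -0.024 with reference gene centring (adjusted p = 0.911).

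The detoxifying cytochrome P450 Cyp3a11 was 39.6-fold higher in enterocytes (5.31 ± 0.18 SE). Abcc2, an apical exporter of conjugates, was 6.36-fold higher, and Abcc3, its basolateral counterpart, 3.25-fold higher. Nr1i3, a xenobiotic receptor, was 5.84-fold higher. Fgfr4, the receptor through which Fgf15 acts on the liver, read 358 and 211 in stem cells against 65.7 and 48.8 in enterocytes, and fell by 2.28 on the log2 scale. Only 1 of its 5 probe sets passed, the others reached up to 0.06, and with the median over them the difference was -0.12 (adjusted p = 0.431). Cyp7a1, the rate-limiting enzyme of bile acid synthesis, read 18.8 on all 4 arrays, below background. Hnf4a, a factor of enterocyte genes, had 0.21 ± 0.09 SE on its brightest probe set and did not pass (adjusted p = 0.175 by limma), with up to 1.80 among its 4 probe sets. It passed with the mean or median over them (0.66 and 1.17), and with reference gene centring it was -0.49 (adjusted p = 0.0244).

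**Figure D5:**
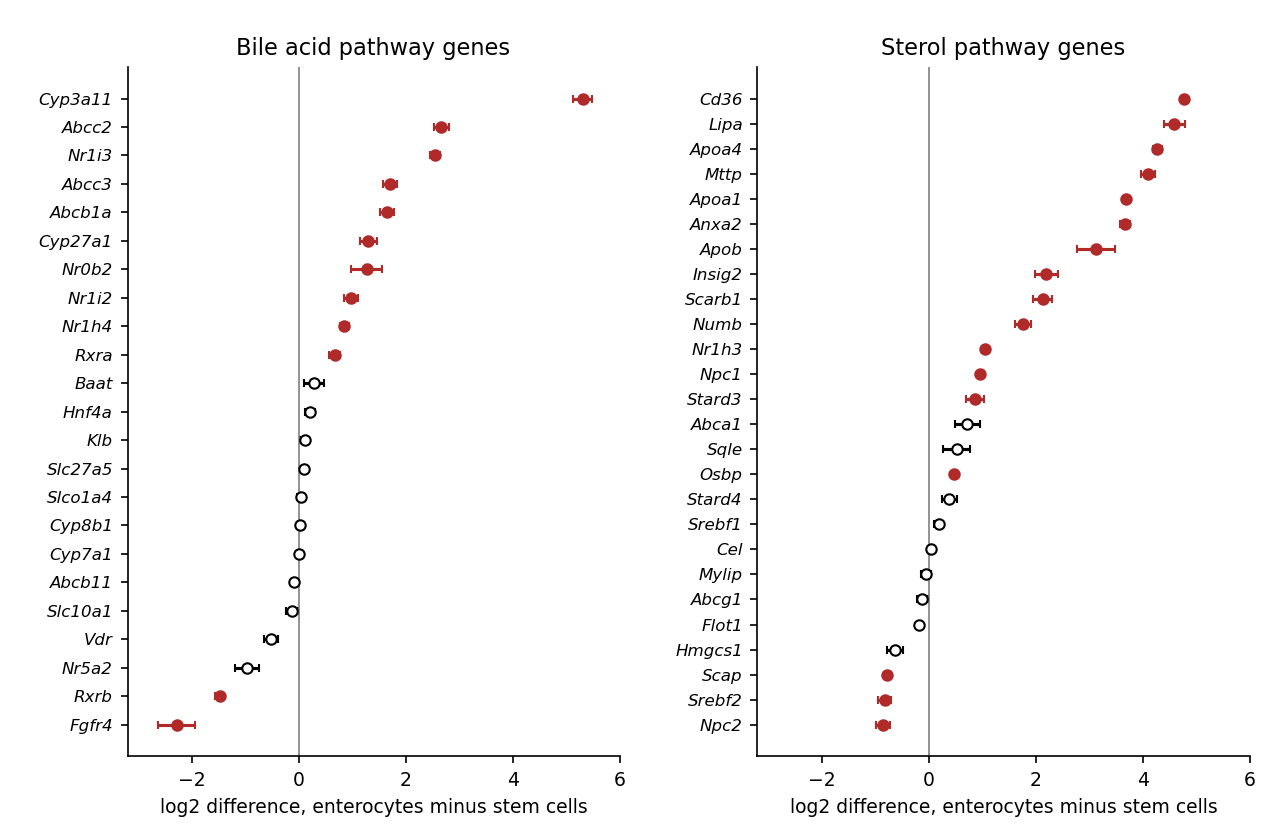
Log2 difference between enterocytes and stem cells (x) of 23 bile acid pathway genes and 26 sterol pathway genes (y), with limma's SE as bars and filled red points for those that passed. Cyp3a11 is drawn at 5.31, Lipa at 4.60 and Cd36 at 4.77, the last from stem readings below background (at least 3.71), while Fgfr4 is lowest at -2.28.

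Around the sterol pump, Cd36, Lipa, Apoa4 and Mttp were higher in enterocytes, and Npc2, Srebf2 and Scap fell. Beside the 18.2% higher and 22.4% lower over all genes stand the counts of this list. Of 26 measured sterol pathway genes 14 were higher, 3 lower and 9 did not pass, at a median of 0.80. Reference gene centring gave 10 higher and 9 lower. Cd36, a scavenger receptor that takes up lipids, read 22.4 and 22.9 in stem cells against 616 and 621 in enterocytes. With the stem readings below background it was at least 13.1-fold higher, the bound being the brighter mean over the background level. Its 3 probe sets all passed as higher, with differences from 1.57 to 4.77. Lipa, the lysosomal lipase that frees cholesterol from its esters, was 24.2-fold higher (4.60 ± 0.20 SE). Mttp, which loads lipid onto apolipoprotein B, was 17.2-fold higher (4.10 ± 0.12 SE), and Apoa4, an apolipoprotein of chylomicrons, 19.4-fold higher (4.28 ± 0.08 SE).

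Nr1h3, the oxysterol receptor LXR alpha, which is known to induce the sterol pump, read 82.7 and 80.5 in stem cells against 167 and 173 in enterocytes, a 2.08-fold increase (1.06 ± 0.06 SE, adjusted p = 0.00368 by limma). Abca1, another LXR target and a cholesterol exporter, had 0.73 ± 0.23 SE and did not pass (adjusted p = 0.0975), though it did with quantile normalization (0.82, adjusted p = 0.0317). Of the lysosomal cholesterol export pair, Npc1 rose 1.94-fold while Npc2 fell by 0.85 on the log2 scale, with -0.28 on its other probe set. Srebf2, the factor that switches on cholesterol synthesis, fell by 0.82 (-0.07 on its other probe set), and Scap, its escort, by 0.78. Calls were lost with reference gene centring for Nr1h3 (0.36, adjusted p = 0.0919) and Npc1 (0.26, adjusted p = 0.218), and with values raised to background for Srebf2 (adjusted p = 0.0506). The call on Npc2 was lost in 5 settings and rests on a probe set of the kind that may read related transcripts, without which the difference was -0.28 (adjusted p = 0.353).

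Likeness to the members was measured as the Euclidean distance between log2 profiles over the 4 arrays, each gene centred on its own mean, among 8817 other genes above background in a group. Cubn, at a distance of 0.25, lay closest to the mean profile of the 4 measured bile acid genes, a profile shaped by Slc51a and by the single high reading of Fabp6. That profile also averages in Slc10a2 and Fgf15, which were below background on every array. Pank3, a pantothenate kinase, the interferon-induced Ifit3 and Anxa10, an annexin, followed at 0.30 to 0.31. The stem readings of Cubn, Ifit3 and Anxa10 were below background. Cubn and Ifit3 did not pass between the groups (adjusted p = 0.0895 and 0.0541 by limma). The lysosomal sialidase gene Neu1 lay closest to the mean profile of Abcg5 and Abcg8, at 0.04, followed by Stx7, a syntaxin of endosomes, the lipase gene Abhd12 and the ethanolamine kinase gene Etnk1 at 0.07 to 0.09. With 4 arrays in 2 groups many genes share such a profile.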

How the data were processed

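The authors deposited linear, normalized intensity values, 1 for each probe set and array. The submitters' processing notes name RMA without a version; RMA usually gives log2 values, and how these came to a linear scale, normalization settings and scan batches are not given in the sources used here. No column lacked a sample (0 columns). Log2 was taken with no pseudocount. Control probe sets (64 of 22690) were left out, probe sets with exactly 1 symbol (20380) were kept, and the brightest stood for each of 12393 genes.

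Group differences came from limma 3.58.1 (lmFit, eBayes; R 4.3.3) as two-sided tests with 2 residual degrees of freedom, adjusted by Benjamini-Hochberg across all genes. Both stem arrays held exactly the same value for 1268 genes, and both enterocyte arrays for 1048; such ties give a spread of 0 within a group. As background level, the 90th percentile was taken over the means of 23 genes typical of other organs. The number of arrays limits the precision. On simulated data with 12393 genes, 50 of them changed at each size, limma recovered 0% of changes of 0.5 (log2). It recovered 20% of those of 1, 62% of 2 and 92% of 4. In the data themselves limma called 40.6% of genes, a far larger share than was changed in the simulation. The adjusted threshold was therefore stricter in the simulation, and these rates do not carry over to the data.

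The members and lists were chosen with earlier results of these data known. Named are all members, Atoh1 and Lgr5, the 4 widest increases and decreases past the threshold in each pathway list with a set of fixed genes (some are not reported here), the 3 widest gaps in each regional list, and the 4 genes nearest each profile. Marker lists for stromal and blood cells (0 of 17 higher, 2 lower) and for liver and pancreas (1 of 10 higher, 2 lower) were also read. Alternatives covered the replicate block, left-out arrays, probe sets, filters, floor, pseudocount, scaling, trend and array weights.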

Additional observations from a re-analysis of the deposited data

How the results depend on the processing

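With the replicate number as a block, members higher and lower stayed at 3 and 0, and all genes at 2010 and 2557 against 2257 and 2779; same-numbered arrays correlated at 0.0504 in their deviations over genes, so the numbers are not shown to pair the samples and the block ended no call among the members. Reference gene centring gave 1251 genes higher and 9078 lower, 1 member lower (Slc10a2, -0.51, adjusted p = 0.0275 by limma; Fgf15 turned to -0.31, Hnf4a to -0.49, Gata4 to -0.56 and Rxra to -0.024; Slc10a2 and Fgf15 are below background, so these signs say nothing of the genes), 12 bile acid and 9 sterol pathway genes lower. Adjusted p values under that centring are not on a par with those of the main fit. For Slc51a limma gave 2.2e-13 under it against 0.00323. The lower bile acid pathway genes were 4 with dim genes left out, 4 with quantile normalization and 1 with values raised to background, against 2. The lower sterol pathway genes were 1 with the dimmest probe set and 1 with values raised to background, against 3. Leaving out 1 array gave 0 to 663 genes higher and 0 to 1058 lower, 0 to 2 members higher and 0 to 1 lower (Fabp6, -0.71 without enterocyte replicate 2 and 4.19 without replicate 1), 0 to 5 bile acid pathway genes higher and 0 lower, and 0 to 8 sterol pathway genes higher and 0 to 2 lower. The cause of these moves was not tested beyond the fewer arrays. The differences of Slc51a, Abcg5 and Abcg8 were positive under every alternative run, 16 for each. They lay between 4.56 and 5.53, 2.24 and 3.05, and 0.48 and 1.36. The calls were lost in 4, 3 and 5 of those runs, in that order. Of 276 values of 23 further named genes with all arrays kept, 252 kept their call and direction, 18 lost the call, 3 gained it and 3 turned sign; with 1 array left out 36 of 92 kept it and 0 turned. The median gap of the members between the enterocyte arrays was 0.23, and 0.16 to 0.23 over its alternatives. Signal over background limits Slc10a2 and Fgf15, below it on every array.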
